A study of Mus musculus with 18 samples.

Results

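The genes described here are 10 transcriptional targets of p53, *Cdkn1a*, *Ccng1*, *Mdm2*, *Tnfrsf10b*, *Bax*, *Phlda3*, *Eda2r*, *Trp53inp1*, *Sesn1* and *Zmat3*, among the 52636 genes of a count table of mouse RPE. They were picked by symbol after their differences between AAV-injected and uninjected eyes in these libraries were known. Those differences are therefore given as a description without a test, and the members were tested only between injected groups. These tests use the same injected libraries, so the counts of members called are not independent of how the members were picked. All 10 matched 1 gene each and passed the filter on low counts in every comparison.

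RNA was sequenced from 18 libraries of C57BL/6 mice, with 3 libraries in each of 6 groups, and each library held the RPE of both eyes of 1 mouse at postnatal day 14. Eyes of 5 groups were injected under the retina on the day of birth with AAV8, an adeno-associated virus, at the same dose of vector per eye. The vectors used the *Best1* promoter, which directs expression to the RPE, and carried GFP, nSREBP2 (the N-terminal, nuclear form of SREBP2), a control hairpin (ctrl sh, labelled Laczsh), or a hairpin against *Lrp2* (*Lrp2* sh1 or *Lrp2* sh2). The hairpin vectors also encode mCherry, so GFP and ctrl sh differ in more than the presence of a hairpin. The sixth group was uninjected and received neither vector nor injection, so vector, transgene and injection cannot be told apart in comparisons against it.

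p53 is a transcription factor that is kept at a low level by MDM2-driven degradation and accumulates after DNA damage and other stress. It binds DNA as a tetramer at a response element made of a pair of decamers, and it raises the transcription of genes that stop the cell cycle, start apoptosis, limit oxidative stress or feed back on p53 itself. The RPE is a pigmented monolayer that supports the photoreceptors and has left the cell cycle in the mature eye. *Cdkn1a* encodes p21, an inhibitor of cyclin-dependent kinases, and *Ccng1* encodes cyclin G1. *Mdm2* encodes the ubiquitin ligase that degrades p53. *Bax* is a pore-forming protein of the mitochondrial death pathway, *Tnfrsf10b* is a TRAIL death receptor, *Eda2r* is a receptor of the TNF receptor family and *Phlda3* is an inhibitor of Akt. *Trp53inp1* encodes a stress-induced nuclear protein, *Sesn1* encodes a sestrin that restrains mTORC1, and *Zmat3* encodes a zinc finger RNA-binding protein.

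The promoters of the members are shown because p53 acts on its targets through a response element. Windows from 250 bases before to 50 after the transcription start were available from RefSeq (GRCm38.p6) for 7 of the 10 members, in 9 windows, and *Tnfrsf10b*, *Trp53inp1* and *Zmat3* had no window. The p53 decamer consensus is its own reverse complement, so both strands were covered. An exact match was found in 5 windows of 5 members and in 8.36% of the 32851 windows of all genes. The 250 bases before the start are printed for these 5, with the exact decamers in capitals. The RefSeq start used for *Ccng1*, 40755286, is not a start in the GENCODE M21 annotation, where the gene reaches 40755311. The last bases printed for *Ccng1* therefore lie within the gene as GENCODE places it.
*Cdkn1a*, chr17:29090729-29090978, + strand: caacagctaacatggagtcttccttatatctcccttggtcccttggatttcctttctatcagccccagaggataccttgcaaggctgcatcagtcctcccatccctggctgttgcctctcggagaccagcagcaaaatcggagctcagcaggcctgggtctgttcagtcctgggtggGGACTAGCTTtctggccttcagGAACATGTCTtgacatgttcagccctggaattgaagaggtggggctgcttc
*Ccng1*, chr11:40755287-40755536, − strand: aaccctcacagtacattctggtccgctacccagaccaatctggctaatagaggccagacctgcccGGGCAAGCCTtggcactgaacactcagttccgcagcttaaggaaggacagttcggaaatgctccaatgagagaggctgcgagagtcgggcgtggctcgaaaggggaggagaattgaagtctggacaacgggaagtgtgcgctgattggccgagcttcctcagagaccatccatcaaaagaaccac
*Mdm2*, chr10:117710759-117711008, − strand: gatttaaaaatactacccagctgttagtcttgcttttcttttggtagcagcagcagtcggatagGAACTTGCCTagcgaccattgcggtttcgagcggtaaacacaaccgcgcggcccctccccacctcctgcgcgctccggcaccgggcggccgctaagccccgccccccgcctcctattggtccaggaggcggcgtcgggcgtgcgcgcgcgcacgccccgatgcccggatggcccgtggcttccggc
*Bax*, chr7:45466899-45467148, − strand: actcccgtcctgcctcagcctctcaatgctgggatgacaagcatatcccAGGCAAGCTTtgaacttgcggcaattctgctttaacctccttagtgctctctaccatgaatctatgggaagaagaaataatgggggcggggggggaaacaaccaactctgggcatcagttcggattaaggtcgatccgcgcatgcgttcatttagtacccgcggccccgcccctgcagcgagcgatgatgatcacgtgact
*Sesn1*, chr10:41887189-41887438, + strand: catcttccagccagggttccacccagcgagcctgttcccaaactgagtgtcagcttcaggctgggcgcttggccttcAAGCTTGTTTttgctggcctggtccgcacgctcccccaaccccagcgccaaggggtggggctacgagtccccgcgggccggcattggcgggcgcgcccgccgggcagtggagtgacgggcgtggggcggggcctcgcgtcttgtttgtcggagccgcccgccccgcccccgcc

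Only the printed *Cdkn1a* window among these 9 held a pair of exact decamers, 12 bases apart, at 73 to 64 and at 51 to 42 bases before the start. Such a pair, with at most 13 bases between the decamers, was found in 24 of the 32851 windows (0.0731%). In the same *Cdkn1a* window the second decamer is directly followed by a decamer with 1 mismatch to the consensus, which is not in capitals. The *Ccng1* and *Bax* windows also held a pair with 1 mismatch in all. Pairs with at most 1 mismatch were found in 1.09% of all windows, but not in the windows of *Mdm2*, *Phlda3*, *Eda2r* or *Sesn1*. A further *Cdkn1a* window, at a start site downstream (chr17:29093769, against 29090979 for the printed window), held no exact decamer. These matches describe letters and not binding, and response elements outside the windows were not searched.

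The libraries held 8921885 to 13696934 counts, and a count of 0 in a library allows up to 3 counts, or 0.216 to 0.327 counts per 1000000 (CPM), for counting error alone. The targets of the vectors followed the labels. *Srebf2* was at 216 ± 14.3 CPM (mean ± SD, n = 3, as for all levels below) with nSREBP2 against 101 ± 15.6 with GFP. *Lrp2* was at 118 ± 42.0 with ctrl sh, at 37.0 ± 6.56 with *Lrp2* sh1 and at 38.6 ± 4.57 with *Lrp2* sh2. It was at 115 ± 51.5 in uninjected eyes, 141 ± 46.3 with GFP and 30.9 ± 6.30 with nSREBP2. A low level of *Lrp2* was thus not particular to the hairpins. Y-linked counts marked the 3 nSREBP2 libraries, *Lrp2* sh2 replicates 2 and 3 and uninjected replicate 3 as male, and *Xist* marked the others as female, so sex and transgene cannot be told apart in nSREBP2 versus GFP. All 9 RPE markers were detected in every library, but their summed level differed between groups. It ranged over 2565–7557 CPM in uninjected eyes, 446–548 with GFP, 355–539 with nSREBP2, 1778–3638 with ctrl sh, 1368–2185 with *Lrp2* sh1 and 447–792 with *Lrp2* sh2. *Rpe65*, the retinoid isomerase that defines the RPE, was at 376 to 1127 CPM in uninjected eyes. It was at 1.06 to 2.29 with GFP, 2.46 to 3.72 with nSREBP2 and 1.78 to 97.0 with ctrl sh. With *Lrp2* sh1 it was at 3.57 to 44.0 and with *Lrp2* sh2 at 3.49 to 15.6. This marker was thus near absent in many injected libraries. Not every marker followed it. Mean *Mitf* was 191 CPM in uninjected eyes, 193 with GFP, 205 with nSREBP2, 239 with ctrl sh and 165 with each *Lrp2* hairpin. Mean *Best1* was above its uninjected level only with nSREBP2 (8.76 against 5.35 CPM). Mean *Otx2* was so only with ctrl sh and *Lrp2* sh1 (193 and 153 against 127). The other markers had lower means in every injected group. The sum of 6 fibroblast markers ranged over 18480–30379, 34252–43762, 71393–85260, 32798–46837, 44424–53409 and 41974–50610 CPM in the same order. This sum was above the RPE sum in every library. The libraries thus held RNA of other cells, and the members' levels are not those of the RPE alone. In bulk RNA, fewer cells of a type and less RNA per cell cannot be told apart. Within its group, ctrl sh replicate 1 stood apart. It had the highest RPE sum (3638 CPM against 1778 and 1956) and the lowest level of each of the 10 members. The main results of the members that use ctrl sh are therefore also given without this library. The count of other p53 targets called with ctrl sh against uninjected eyes is given in the same way. Values that use ctrl sh for other genes, lists and markers are not given without it.

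**Figure D1:**
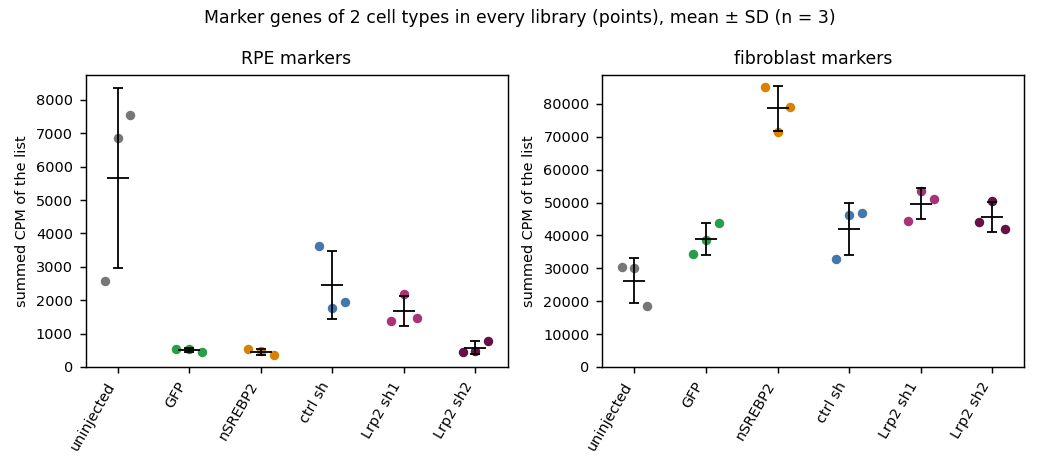
Summed CPM of 9 RPE markers (left) and 6 fibroblast markers (right) in each library, with 1 point per library, horizontal bars for group means and error bars for the SD (n = 3). The uninjected group has the highest mean of RPE markers, although its lowest library (2565 CPM) lies below the highest ctrl sh library (3638 CPM), and the nSREBP2 libraries, at 71393 to 85260 CPM, lie highest for fibroblast markers.

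The 2 cell cycle genes were the members with the widest range of levels. *Cdkn1a* (ENSMUSG00000023067, chr17:29090976–29100727, + strand, GRCm38) was at 47.9, 38.0 and 59.6 CPM in the uninjected libraries, replicates 1 to 3. It was at 105, 98.9 and 90.9 with GFP, at 88.5, 68.9 and 77.6 with nSREBP2 and at 36.6, 89.5 and 122 with ctrl sh. The *Lrp2* sh1 libraries held 435, 355 and 429 CPM and the *Lrp2* sh2 libraries 247, 269 and 305. Every *Lrp2* hairpin library was thus above every other library, and only ctrl sh overlapped with the uninjected eyes. The fitted difference from uninjected eyes (log2 fold change, log2FC) was 1.01 with GFP, 0.69 with nSREBP2, 0.76 with ctrl sh, 3.06 with *Lrp2* sh1 and 2.50 with *Lrp2* sh2. In GENCODE M21, 273 bases of the *Cdkn1a* exons lie opposite an exon of AC167363.2, whose reads could be part of the count because the use of strand in counting is not given in the sources used here.

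*Ccng1* (ENSMUSG00000020326, chr11:40748552–40755311, − strand) was at 48.5, 57.3 and 52.7 CPM in uninjected eyes. It was at 135, 131 and 108 with GFP, at 113, 81.1 and 99.1 with nSREBP2 and at 87.3, 139 and 163 with ctrl sh. With *Lrp2* sh1 it was at 371, 307 and 324 CPM, and with *Lrp2* sh2 at 227, 288 and 272. No injected library overlapped with the uninjected libraries, and both *Lrp2* hairpin groups lay above all others. The log2FC against uninjected eyes was between 0.88 with nSREBP2 and 2.66 with *Lrp2* sh1.

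*Mdm2* (ENSMUSG00000020184, chr10:117688875–117710758, − strand), the negative regulator of p53, had a narrower range. Its levels were 54.4, 47.1 and 60.6 CPM in uninjected eyes, 62.5, 64.8 and 64.4 with GFP, 64.8, 54.2 and 54.6 with nSREBP2 and 52.6, 57.2 and 64.1 with ctrl sh. They were 92.7, 74.8 and 83.3 CPM with *Lrp2* sh1 and 84.9, 85.0 and 75.2 with *Lrp2* sh2. The nSREBP2 and ctrl sh libraries overlapped with the uninjected ones, and both *Lrp2* hairpin groups were above all other libraries, with a log2FC against uninjected eyes of 0.63 and 0.60.

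The genes of apoptosis and cell death differed in which groups were high. *Tnfrsf10b* (ENSMUSG00000022074, chr14:69767472–69784411, + strand) was at 25.3, 19.8 and 26.1 CPM in uninjected eyes. It was at 24.4, 21.6 and 21.4 with GFP, at 26.9, 23.5 and 22.6 with nSREBP2 and at 18.99, 23.7 and 26.0 with ctrl sh. With *Lrp2* sh1 it was at 58.0, 48.1 and 55.0, and with *Lrp2* sh2 at 40.05, 50.2 and 55.5. The GFP, nSREBP2 and ctrl sh libraries overlapped with the uninjected ones (log2FC −0.08, 0.03 and −0.06), whereas both *Lrp2* hairpins were higher (log2FC 1.17 and 1.04).

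*Eda2r* (ENSMUSG00000034457, chrX:97333840–97377216, − strand) was at 7.37, 7.16 and 7.30 CPM in uninjected eyes. It was at 15.02, 13.7 and 11.9 with GFP, at 19.1, 17.03 and 18.98 with nSREBP2 and at 6.55, 12.8 and 16.7 with ctrl sh. With *Lrp2* sh1 it was at 22.2, 20.8 and 24.6, and with *Lrp2* sh2 at 45.9, 47.6 and 45.3. Among the 10 members it had the largest log2FC against uninjected eyes with *Lrp2* sh2 (2.67) and with nSREBP2 (1.33), and its *Lrp2* sh2 libraries did not overlap with any other library. It lies on the X chromosome, and 2 of the 3 *Lrp2* sh2 libraries and all nSREBP2 libraries were from males. Within *Lrp2* sh2 the female library, replicate 1, was at 45.9 CPM beside 47.6 and 45.3 in the males. Within the uninjected group the male library, replicate 3, was at 7.30 CPM beside 7.37 and 7.16 in the females.

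*Bax* (ENSMUSG00000003873, chr7:45461697–45466898, − strand) was at 7.47, 9.97 and 10.2 CPM in uninjected eyes and between 10.9 and 17.6 CPM in all injected libraries. The groups did not separate from each other beyond that, with means of 14.5 ± 0.718 (GFP), 13.2 ± 1.96 (nSREBP2), 13.1 ± 2.27 (ctrl sh), 15.6 ± 1.73 (*Lrp2* sh1) and 16.1 ± 1.38 CPM (*Lrp2* sh2). In the annotation 192 bases of its exons overlap those of Gm45808 on the same strand, so its count is uncertain. *Phlda3* (ENSMUSG00000041801, chr1:135766119–135769136, + strand) was at 44.1, 40.4 and 36.0 CPM in uninjected eyes, at 50.4 to 65.2 CPM in the GFP, nSREBP2 and ctrl sh libraries, and at 72.5 to 98.6 CPM in the *Lrp2* hairpin libraries. These 3 ranges did not overlap.

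Of the remaining stress genes, *Trp53inp1* and *Zmat3* had their highest group mean with *Lrp2* sh2 and *Sesn1* its lowest. *Trp53inp1* (ENSMUSG00000028211, chr4:11156431–11174379, + strand) was at 86.1, 77.8 and 84.3 CPM in uninjected eyes, 114, 111 and 115 with GFP, 93.6, 76.2 and 83.5 with nSREBP2 and 75.9, 118 and 133 with ctrl sh. It was at 126, 113 and 117 CPM with *Lrp2* sh1 and at 151, 144 and 148 with *Lrp2* sh2, and the nSREBP2 and ctrl sh libraries overlapped with the uninjected ones (log2FC 0.02 and 0.39). *Sesn1* (ENSMUSG00000038332, chr10:41809935–41908424, + strand) was at 62.0, 64.1 and 64.1 CPM in uninjected eyes, 75.7, 70.8 and 75.8 with GFP, 66.4, 58.5 and 66.3 with nSREBP2 and 64.7, 84.4 and 81.1 with ctrl sh. It was at 76.5, 77.9 and 63.6 CPM with *Lrp2* sh1 and at 54.6, 54.8 and 59.2 with *Lrp2* sh2. *Lrp2* sh2 was the only group in which a member lay below all uninjected libraries, and *Sesn1* was that member (log2FC −0.17).

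*Zmat3* (ENSMUSG00000027663, chr3:32334792–32366014, − strand) was at 59.4, 69.2 and 63.1 CPM in uninjected eyes and was above them in every injected library. The GFP libraries held 105, 106 and 94.5 CPM, the nSREBP2 libraries 106, 94.3 and 96.8 and the ctrl sh libraries 70.7, 82.9 and 79.5. The *Lrp2* sh1 libraries held 139, 127 and 147 CPM and the *Lrp2* sh2 libraries 167, 194 and 215, so that *Lrp2* sh2 was highest, *Lrp2* sh1 next and ctrl sh the lowest of the injected groups.

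**Figure D2:**
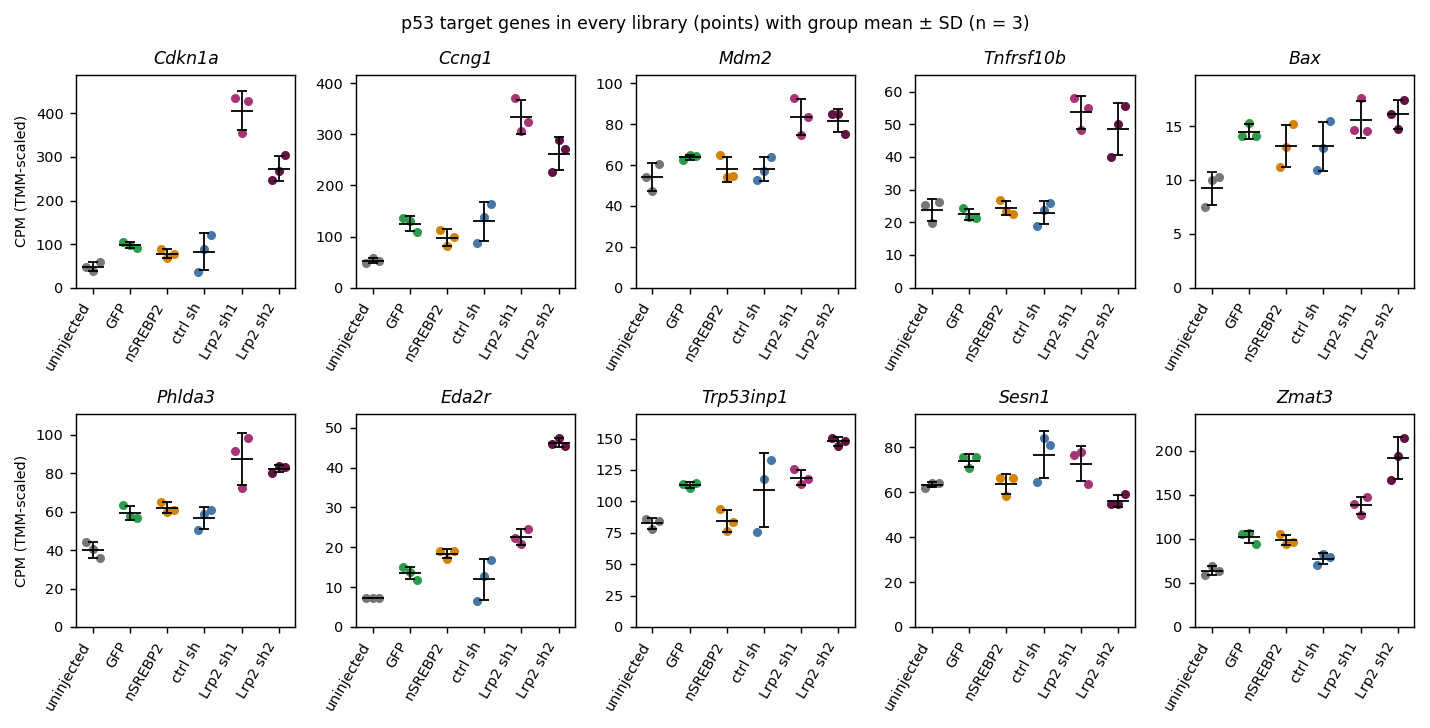
CPM of the 10 p53 targets (1 panel per gene, linear axes from 0) in each library of the 6 groups; points are libraries, horizontal bars are group means and error bars the SD (n = 3). *Cdkn1a* and *Ccng1* are highest with *Lrp2* sh1, at 355 to 435 and 307 to 371 CPM, and *Eda2r*, *Trp53inp1* and *Zmat3* with *Lrp2* sh2.

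Scaled to exon length, the order of the members also differed between groups. In uninjected eyes *Phlda3* had the highest mean level per kilobase (25.8 CPM per kb) and *Eda2r* the lowest (1.24), with *Cdkn1a* at 13.7 and *Ccng1* at 15.04. With *Lrp2* sh1, *Cdkn1a* was at 114 and *Ccng1* at 95.1 CPM per kb, above *Phlda3* at 56.1.

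Over the 10 members, the median log2FC against uninjected eyes was 0.60 with GFP, 0.56 with nSREBP2, 0.44 with ctrl sh, 1.11 with *Lrp2* sh1 and 1.04 with *Lrp2* sh2, beside −0.02 to 0.00 over all genes tested in these comparisons. Without ctrl sh replicate 1 the ctrl sh value was 0.58. In *Lrp2* sh2, 1 member lay below all uninjected libraries, beside 20.1% of all genes. The number of members whose 3 injected libraries all lay above the 3 uninjected ones was 9 with GFP, 6 with nSREBP2, 5 with ctrl sh, 9 with *Lrp2* sh1 and 9 with *Lrp2* sh2. Among all genes tested the same separation was seen for 13%, 22.4%, 17.3%, 23.2% and 20.9%. Nothing is read from these counts, since the members were picked on this contrast, and the 5 comparisons use the same uninjected libraries. RPE markers were called lower than in uninjected eyes for 6 of 9 genes with GFP, 7 with nSREBP2 (1 was higher), 0 with ctrl sh and 6 with each *Lrp2* hairpin (edgeR, adjusted *P* under 0.05), and fibroblast markers were higher for 0, 5, 0, 3 and 4 of 6. Where edgeR called none, 6 RPE markers (ctrl sh) and 4 fibroblast markers (GFP and ctrl sh alike) had an unadjusted *P* under 0.05, and DESeq2 called 1 and 3. Rod markers were higher for 1 of 9 genes with GFP, 9 of 10 with nSREBP2 and 8 of 10 with *Lrp2* sh2. Endothelium markers were lower for 5, 3 and 6 of 7 genes with nSREBP2, *Lrp2* sh1 and *Lrp2* sh2, and blood markers for 1, 2 and 5 of 5. Macrophage markers were higher for 6 of 7 genes with nSREBP2 and 2 with *Lrp2* sh2, and lower for 1 with GFP, 2 with ctrl sh, 2 with *Lrp2* sh1 and 1 with *Lrp2* sh2. Their part in the levels of the members was not tested.

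*Lrp2* sh1 was compared with ctrl sh, its control hairpin. The groups differ in hairpin sequence as well as in the level of *Lrp2*, and these cannot be told apart here. *Lrp2* was also low with nSREBP2 (30.9 ± 6.30 CPM), and the part of *Lrp2* in the members' levels was not tested. Of the 10 members, 6 rose and none fell (edgeR, adjusted *P* under 0.05), beside 3.06% of all genes that rose, 2.28% that fell and 5.33% called in either direction. *Cdkn1a* rose the most, with a log2FC of 2.30 (SE 0.33, adjusted *P* = 0.0046), followed by *Ccng1* with 1.36 (SE 0.18, adjusted *P* = 0.00356). *Tnfrsf10b* rose by 1.23 (SE 0.12, adjusted *P* = 0.000696), *Zmat3* by 0.82 (SE 0.08, adjusted *P* = 0.000687), *Phlda3* by 0.62 (SE 0.11, adjusted *P* = 0.0143) and *Mdm2* by 0.52 (SE 0.09, adjusted *P* = 0.0126). In each of these 6 genes every *Lrp2* sh1 library was above every ctrl sh library. *Eda2r* also did not overlap between the groups, but its log2FC of 0.91 (SE 0.26) did not pass (adjusted *P* = 0.0758). It was called without a filter on low counts and when all 18 libraries were fitted, with or without sex (adjusted *P* from 0.00117 to 0.0191), but not by DESeq2 (0.16). The 95% intervals of the log2FC were −0.07 to 0.57 for *Bax*, −0.24 to 0.49 for *Trp53inp1* and −0.33 to 0.16 for *Sesn1*, which did not pass either.

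Without ctrl sh replicate 1, 7 members were called, since *Eda2r* passed (log2FC 0.61, adjusted *P* = 0.0202), and the log2FC was 1.94 for *Cdkn1a* and 1.14 for *Ccng1*. *Eda2r* also passed without ctrl sh replicate 3, and *Mdm2* and *Phlda3* were not called without *Lrp2* sh1 replicate 1 or 3 (adjusted *P* between 0.0553 and 0.0639). Few marker genes were called in this comparison. Of the RPE list 1 of 9 genes was called (lower), of the macrophage list 1 of 7 and of the blood list 1 of 5 (both lower), and none of the fibroblast, endothelium and rod lists, of which 1, 1 and 0 genes had an unadjusted *P* under 0.05 and DESeq2 called 1, 0 and 0.

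*Lrp2* sh2, the other hairpin against *Lrp2*, was compared with the same ctrl sh libraries. Here 7 members rose and 1 fell, beside 8.59% of all genes that rose and 9.48% that fell (18.1% in all). *Eda2r* rose by 1.97 (SE 0.25, edgeR, adjusted *P* = 0.000815) and *Cdkn1a* by 1.74 (SE 0.33, adjusted *P* = 0.00615). *Zmat3* rose by 1.32 (SE 0.10, adjusted *P* = 8.36e-05), *Tnfrsf10b* by 1.10 (SE 0.14, adjusted *P* = 0.00091) and *Ccng1* by 1.03 (SE 0.19, adjusted *P* = 0.00578). *Phlda3* rose by 0.55 (SE 0.08, adjusted *P* = 0.00178) and *Mdm2* by 0.51 (SE 0.09, adjusted *P* = 0.00401). *Sesn1* fell by 0.43 (SE 0.10, adjusted *P* = 0.0161). All 8 genes separated the groups without overlap, as did *Trp53inp1* (log2FC 0.46, SE 0.16, adjusted *P* = 0.0877), while *Bax* overlapped (95% interval −0.01 to 0.63). *Trp53inp1* was called by DESeq2 (adjusted *P* = 0.0212), without a filter and when all 18 libraries were fitted without sex.

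Without ctrl sh replicate 1 the same number was called, with a log2FC of 1.66 for *Eda2r* and 1.38 for *Cdkn1a*. The call of *Sesn1* was lost without ctrl sh replicate 2 or 3 or *Lrp2* sh2 replicate 1 or 2 (adjusted *P* from 0.0503 to 0.0664), and *Trp53inp1* passed without ctrl sh replicate 3 (adjusted *P* = 0.0496). In this comparison markers of several cell types differed. RPE markers were lower for 5 of 9 genes, rod photoreceptor markers higher for 8 of 10, endothelium markers lower for 6 of 7 and blood markers lower for 5 of 5, and their part in the members' differences was not tested. When all 18 libraries were fitted with sex included, the same 8 members were called, *Cdkn1a* at 1.51 and *Eda2r* at 1.95.

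Both hairpins share ctrl sh, so they were also compared with each other directly. *Lrp2* sh2 was higher than *Lrp2* sh1 for 3 members and lower for 3, beside 10.2% and 12.3% of all genes (22.4% in all). *Eda2r* was higher by 1.05 (SE 0.08, edgeR, adjusted *P* = 1.58e-05), *Zmat3* by 0.49 (SE 0.09, adjusted *P* = 0.00405) and *Trp53inp1* by 0.33 (SE 0.06, adjusted *P* = 0.00386). *Cdkn1a* differed by −0.56 (SE 0.10, adjusted *P* = 0.00252), *Sesn1* by −0.36 (SE 0.09, adjusted *P* = 0.0139) and *Ccng1* by −0.34 (SE 0.10, adjusted *P* = 0.03). None of these 6 overlapped between the groups. The intervals of the log2FC were −0.21 to 0.17 for *Mdm2*, −0.39 to 0.12 for *Tnfrsf10b*, −0.21 to 0.33 for *Bax* and −0.29 to 0.15 for *Phlda3*. *Lrp2* itself was at 37.0 ± 6.56 and 38.6 ± 4.57 CPM with the 2 hairpins.

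When all 18 libraries were fitted together, whether or not sex was included, only *Eda2r*, *Zmat3* and *Sesn1* were called between the hairpins. *Sesn1* was not called without *Lrp2* sh1 replicate 1 or 2, nor *Ccng1* without *Lrp2* sh1 replicate 1 or 3 or *Lrp2* sh2 replicate 1. RPE markers were lower with *Lrp2* sh2 for 6 of 9 genes and endothelium markers for 7 of 7, and blood markers for 3 of 5, and rod markers were higher for 9 of 10 and macrophage markers for 5 of 7, and the part of these cells was not tested.

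nSREBP2 was compared with GFP, its control vector. *Eda2r* was higher with nSREBP2 by 0.44 (SE 0.12, edgeR, adjusted *P* = 0.0275), *Trp53inp1* was lower by a log2FC of −0.42 (SE 0.08, adjusted *P* = 0.00512) and *Cdkn1a* by −0.33 (SE 0.10, adjusted *P* = 0.039). These 3 of 10 stand beside 21% of all genes, 12.6% higher and 8.47% lower, so that the share called is near that of all genes. The other 7 members had a log2FC between −0.35 (*Ccng1*, adjusted *P* = 0.075) and 0.12 (*Tnfrsf10b*, adjusted *P* = 0.481). *Ccng1* was called by DESeq2 (adjusted *P* = 0.0336) and without a filter, and *Eda2r* was not called by DESeq2 (adjusted *P* = 0.0601). The calls were sensitive to single libraries, with 1 left without GFP replicate 2 or nSREBP2 replicate 3. When all 18 libraries were fitted only *Trp53inp1* was called (adjusted *P* = 0.0304), and none was when sex was included. All 6 fibroblast markers and all 7 macrophage markers were higher with nSREBP2 and 5 of 7 endothelium markers lower, and their part was not tested.

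The control vectors were compared with each other (ctrl sh versus GFP). *Zmat3* was lower with ctrl sh by a log2FC of −0.41 (SE 0.08, edgeR, adjusted *P* = 0.0309), 1 of 10 members beside 0.361% of all genes lower, 2.32% higher and 2.68% in all. This call was lost when any library other than GFP replicate 3 was left out, among them ctrl sh replicate 1 (log2FC −0.35, adjusted *P* = 0.059). For *Cdkn1a* the interval of the log2FC was wide, from −1.01 to 0.47, and without ctrl sh replicate 1 its log2FC was 0.09 instead of −0.27. RPE markers were higher with ctrl sh for 3 of 9 genes.

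Separation without overlap was counted in the same way. In nSREBP2 versus GFP 1 member was higher and 3 were lower in all libraries, beside 19.7% and 18.5% of all genes. In *Lrp2* sh1 versus ctrl sh 7 were higher and 0 lower (13.5% and 11.8% of all genes), and in *Lrp2* sh2 versus ctrl sh 8 were higher and 1 lower (17.1% and 19.7%). Between the hairpins 3 were higher and 3 lower (17.5% and 21.5%), and in ctrl sh versus GFP 0 and 1 (11.2% and 8.13%). With the study's added limit of an absolute log2FC above 1, 0, 3, 5, 1 and 0 members were called in these 5 comparisons, beside 6.67%, 0.994%, 4.76%, 5.13% and 0.899% of all genes. The members past it were *Cdkn1a*, *Ccng1* and *Tnfrsf10b* with both hairpins against ctrl sh, *Eda2r* and *Zmat3* with *Lrp2* sh2 against ctrl sh, and *Eda2r* between the hairpins.

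**Figure D3:**
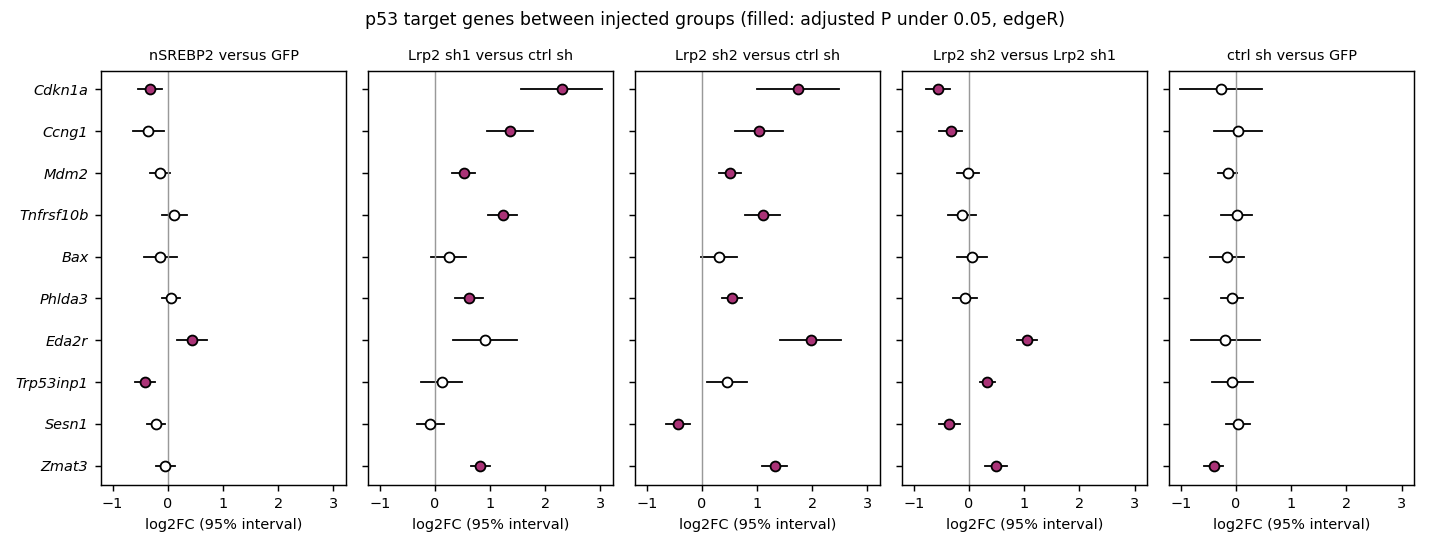
log2FC of the 10 p53 targets in 5 comparisons between injected groups (1 panel each), with points for the edgeR estimate, lines for its 95% interval and filled points for adjusted *P* under 0.05. Filled points number 3 in nSREBP2 versus GFP, 6 and 8 in *Lrp2* sh1 and sh2 versus ctrl sh, 6 between the hairpins and 1 in ctrl sh versus GFP.

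The transcript of p53 itself had group means between 44.2 and 56.2 CPM. *Trp53* was at 44.2 ± 1.21 CPM in uninjected eyes, 47.2 ± 2.18 with GFP, 56.2 ± 2.72 with nSREBP2, 45.4 ± 1.51 with ctrl sh, 50.8 ± 1.53 with *Lrp2* sh1 and 55.6 ± 1.22 with *Lrp2* sh2. It was called higher in nSREBP2 versus GFP (log2FC 0.25, SE 0.07, edgeR, adjusted *P* = 0.0305) and in *Lrp2* sh2 versus ctrl sh (0.31, SE 0.06, adjusted *P* = 0.0106), but not in *Lrp2* sh1 versus ctrl sh (0.16, SE 0.06, adjusted *P* = 0.198). Against uninjected eyes it was called with nSREBP2 and *Lrp2* sh2 (0.34 each, adjusted *P* = 0.00983 and 0.0127). p53 is regulated mainly as a protein, which was not measured. *Mdm4*, which encodes an inhibitor of p53 related to MDM2, had group means of 162 to 194 CPM and was called in none of the 10 comparisons (edgeR, smallest adjusted *P* = 0.0509, nSREBP2 versus GFP), with an unadjusted *P* under 0.05 in 2 and no call by DESeq2 (0 of 10). *Cdkn2a*, whose product ARF blocks MDM2, had 0 counts in each uninjected library and at most 10 in any library.

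The p53 family and regulator list, which includes kinases and ligases that act on p53, had 15 or 16 genes tested per comparison. It had 4 called genes in nSREBP2 versus GFP, 1 in *Lrp2* sh1 versus ctrl sh, 4 in *Lrp2* sh2 versus ctrl sh, 4 between the hairpins and 0 in ctrl sh versus GFP, where 1 had an unadjusted *P* under 0.05 and DESeq2 called 0. Over all genes 21%, 5.33%, 18.1%, 22.4% and 2.68% were called in these comparisons. *Rchy1*, a p53-induced ubiquitin ligase, rose by 0.44 with *Lrp2* sh1 (SE 0.07, edgeR, adjusted *P* = 0.0101). *Hipk2*, a kinase that phosphorylates p53, fell by 0.56 with *Lrp2* sh2 against ctrl sh (SE 0.12, adjusted *P* = 0.0138) and by 0.36 with nSREBP2 against GFP (SE 0.10, adjusted *P* = 0.0325). *Chek1*, a checkpoint kinase, was higher with nSREBP2 than with GFP (0.77, SE 0.21, adjusted *P* = 0.0244) and with *Lrp2* sh2 than with *Lrp2* sh1 (1.08, SE 0.20, adjusted *P* = 0.00411). *Trp63*, the epithelial family member, was called higher with nSREBP2 (3.80, SE 1.05, adjusted *P* = 0.0293) and with *Lrp2* sh2 (2.29, SE 0.68, adjusted *P* = 0.0445), on mean levels of 10.1 and 6.81 CPM. The same list against uninjected eyes had 0 called genes for GFP and ctrl sh, 2 for nSREBP2, 1 for *Lrp2* sh1 and 3 for *Lrp2* sh2, beside 2.48%, 6.49%, 26.2%, 24.5% and 22.7% of all genes in that order. Of the 15 and 16 genes tested for GFP and ctrl sh, 2 each had an unadjusted *P* under 0.05, and DESeq2 called 0. *Hipk2* was lower by a log2FC of −0.77 with nSREBP2 and −0.88 with *Lrp2* sh2 (adjusted *P* = 0.0036 and 0.00265). No gene of the list was called with an absolute log2FC above 1 against uninjected eyes. The largest log2FC of the list there, 3.08 with nSREBP2 and 2.52 with *Lrp2* sh2, were thus not called.

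Other known p53 targets, a list of 46 genes that excludes the 10 members, were also counted. In *Lrp2* sh1 versus ctrl sh, 9 of 45 tested genes rose and 1 fell, with a median log2FC of 0.21 beside −0.01 for all genes, of which 5.33% were called. *Gdf15*, a secreted stress cytokine, rose by 2.54 (SE 0.26, edgeR, adjusted *P* = 0.000957) from 4.44 ± 1.48 to 25.7 ± 7.53 CPM, and *Lif*, a cytokine, rose by 1.41 (SE 0.24, adjusted *P* = 0.0119). *Ak1*, adenylate kinase, rose by 0.87 (SE 0.10, adjusted *P* = 0.00182) and *Lpin1*, a phosphatidate phosphatase, by 0.68 (SE 0.08, adjusted *P* = 0.00223). In *Lrp2* sh2 versus ctrl sh 17 rose and 6 fell (18.1% of all genes called), with a median of 0.19 beside 0.01. *Pmaip1*, which encodes the BH3-only protein NOXA, rose by 2.08 (SE 0.19, adjusted *P* = 0.000171), *Gdf15* by 1.91 (SE 0.22, adjusted *P* = 0.000513) and *Lif* by 1.47 (SE 0.25, adjusted *P* = 0.00348). *Sfn*, a 14-3-3 protein of epithelia, rose by 2.61 (SE 0.47, adjusted *P* = 0.00492), with 25.2, 23.5 and 70.9 CPM in the *Lrp2* sh2 libraries.

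Between the hairpins 9 of 45 genes were higher and 11 lower with *Lrp2* sh2, beside 22.4% of all genes called. *Pmaip1* was higher by 1.37 (SE 0.23, edgeR, adjusted *P* = 0.00242), whereas *Lpin1* differed by −1.11 (SE 0.09, adjusted *P* = 2.66e-05) and *Abhd4*, a lipase, by −0.91 (SE 0.06, adjusted *P* = 4.62e-06). In nSREBP2 versus GFP 12 rose and 8 fell, beside 21% of all genes called. *Gadd45a*, a growth arrest gene, rose by 1.60 (SE 0.19, adjusted *P* = 0.000378) and *Sfn* by 2.64 (SE 0.71, adjusted *P* = 0.0267), and *Sesn2*, a sestrin, fell by 1.44 (SE 0.15, adjusted *P* = 0.000159). *Sfn* was at 15.1, 9.04 and 80.4 CPM in the nSREBP2 libraries, so its mean was set by replicate 3. In ctrl sh versus GFP, where 2.68% of all genes were called, 2 genes were higher, *Pltp* (0.79, SE 0.14, adjusted *P* = 0.0191), a phospholipid transfer protein, and *Abhd4* (0.37, SE 0.06, adjusted *P* = 0.0172), and *Gdf15* was lower (−1.59, SE 0.25, adjusted *P* = 0.0125).

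Against uninjected eyes the other targets went in both directions. With GFP 4 of 44 rose and 2 fell, beside 2.48% of all genes called, and the median log2FC was 0.00. *Gdf15* rose by 1.33 (SE 0.22, edgeR, adjusted *P* = 0.0189), *Sesn2* by 1.32 (SE 0.14, adjusted *P* = 0.00401), *Aen*, an apoptosis-enhancing nuclease, by 1.11 (SE 0.14, adjusted *P* = 0.00776) and *Ak1* by 0.60 (SE 0.12, adjusted *P* = 0.0344). *Plk3*, a polo-like kinase, fell by 1.15 (SE 0.22, adjusted *P* = 0.0363) and *Btg2*, an antiproliferative gene, by 1.10 (SE 0.22, adjusted *P* = 0.0377). With 1 library left out the count of 6 became 2 (uninjected replicate 3, GFP replicate 1 or GFP replicate 2), 3 (uninjected replicate 2), 7 (GFP replicate 3) or 8 (uninjected replicate 1). With nSREBP2 12 of 45 rose and 6 fell, beside 26.2% of all genes and a median of 0.15, with *Gdf15* at 2.55 (SE 0.20, adjusted *P* = 6.83e-05), *Lif* at 1.56 (SE 0.28, adjusted *P* = 0.00411), *Pvt1*, a noncoding RNA, at 1.13 (SE 0.30, adjusted *P* = 0.0244) and *Btg2* at −1.12 (SE 0.14, adjusted *P* = 0.000604). *Pidd1*, a death domain protein, rose by 1.12 (SE 0.34, adjusted *P* = 0.0378), and *Pltp* fell by 1.08 (SE 0.21, adjusted *P* = 0.00594).

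With ctrl sh 6 of 45 other targets rose and 4 fell against uninjected eyes, beside 6.49% of all genes and a median of 0.04. *Pidd1* rose by 1.84 (SE 0.37, edgeR, adjusted *P* = 0.0261), *Ak1* by 0.88 (SE 0.12, adjusted *P* = 0.00884) and *Abhd4* by 0.70 (SE 0.08, adjusted *P* = 0.0058), while *Plk3* fell by 0.98 (SE 0.23, adjusted *P* = 0.0439) and *Btg2* by 0.85 (SE 0.17, adjusted *P* = 0.0283). This count was 8 without ctrl sh replicate 1, 7 without uninjected replicate 2, 4 without uninjected replicate 1 or 3 and 3 without ctrl sh replicate 2 or 3. With *Lrp2* sh1 16 rose and 8 fell, beside 24.5% and a median of 0.19, and with *Lrp2* sh2 16 rose and 5 fell, beside 22.7% and a median of 0.28. *Pidd1* rose by 2.66 and 3.04 with the hairpins (SE 0.30 and 0.27, adjusted *P* = 0.000624 and 0.000245) from 1.11 ± 0.383 CPM to 7.003 ± 1.60 and 9.05 ± 1.07. *Lif* rose by 2.11 and 2.17 (adjusted *P* = 0.000406 and 0.000479), *Gdf15* by 2.29 and 1.67 (adjusted *P* = 0.00034 and 0.000573), and *Ak1* by 1.76 with *Lrp2* sh1 (adjusted *P* = 1.3e-05). *Rps27l*, a ribosomal protein whose reads may be shared with its close paralog *Rps27*, rose by 1.37 with *Lrp2* sh1 (SE 0.16, adjusted *P* = 0.000762). *Perp*, a membrane protein of epithelia, rose by 1.73 with *Lrp2* sh2 (SE 0.31, adjusted *P* = 0.00504), as did *Sfn* by 2.52 (SE 0.48, adjusted *P* = 0.00642).

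*Rprm*, which encodes the G2 arrest protein Reprimo, was near the detection limit in uninjected eyes with 2, 3 and 2 counts. From these 7 counts to the summed counts of the injected libraries the ratio of CPM was 3.33 (95% counting interval 1.43–9.01) with GFP, 5.30 (2.36–14.0) with nSREBP2, 8.03 (3.71–20.7) with ctrl sh, 14.5 (6.82–36.7) with *Lrp2* sh1 and 15.2 (7.19–38.6) with *Lrp2* sh2. It was called higher than in uninjected eyes in ctrl sh (edgeR, adjusted *P* = 0.00689), *Lrp2* sh1 (adjusted *P* = 0.000868) and *Lrp2* sh2 (adjusted *P* = 0.000228).

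**Figure D4:**
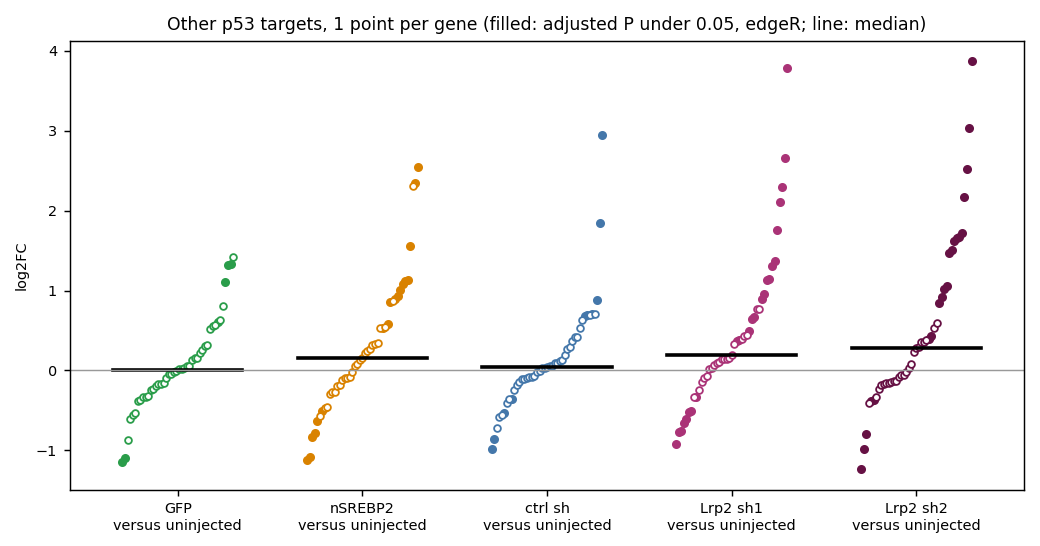
log2FC against uninjected eyes of the other p53 targets (44 or 45 genes), 1 point per gene in rising order within each injected group; filled points have adjusted *P* under 0.05 (edgeR) and black lines are medians. The medians lie between 0.00 (GFP) and 0.28 (*Lrp2* sh2), and the called genes lie on both sides of 0.

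Across the 15 injected libraries the members varied together to different degrees. The Pearson correlation of a member's log2 CPM with the mean z-score of the other 9 was 0.97 for *Cdkn1a*, 0.95 for *Ccng1*, 0.92 for *Tnfrsf10b*, 0.91 for *Mdm2*, 0.89 for *Phlda3*, 0.83 for *Zmat3*, 0.79 for *Trp53inp1*, 0.77 for *Eda2r*, 0.66 for *Bax* and −0.28 for *Sesn1*. These values rest largely on the differences between the 5 groups and are a description. Of 15309 genes ranked in the same way against all 10 members, the 5 with the highest correlation were *Ano3* (0.97), *Tob1* (0.97), *Svop* (0.95), *Fam212b* (0.95) and *Psrc1* (0.93). *Ano3* was at 0.278 ± 0.273 CPM in uninjected eyes, 7.24 ± 1.89 with GFP, 4.99 ± 0.505 with nSREBP2, 8.87 ± 4.32 with ctrl sh, 32.4 ± 5.24 with *Lrp2* sh1 and 34.9 ± 6.59 with *Lrp2* sh2. *Svop* was at 0.0664 ± 0.0576 CPM in uninjected eyes, between 2.21 and 3.14 in the GFP, nSREBP2 and ctrl sh means, and at 15.3 ± 2.88 and 9.32 ± 0.765 with the *Lrp2* hairpins. *Tob1*, *Fam212b* and *Psrc1* were also expressed in uninjected eyes, with 80.8 ± 6.56, 17.1 ± 2.19 and 6.71 ± 0.539 CPM there against 108 ± 9.73, 29.6 ± 1.54 and 15.1 ± 3.01 with *Lrp2* sh1.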

How the data were processed

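RNA of the RPE, dissociated with papain from eyecups without retina and optic nerve, was depleted of ribosomal RNA and sequenced as directional libraries. The authors aligned reads to GRCm38 with STAR and deposited raw gene counts for 18 libraries. Which annotation was counted, and whether strand was used, is not given in the sources used here. Library totals were 8921885 to 13696934 counts, and intervals and limits from counts cover counting error only. Replicates differed by more than counting noise (chi-square per degree of freedom at least 3.30). They are separate mice, and groups follow the labels. Levels are CPM, counts per 1000000 of the library total scaled by TMM factors over all 18 libraries.

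Comparisons used edgeR 4.0.16 in R 4.3.3 on the 6 libraries of both groups (filterByExpr, TMM, glmQLFit and glmQLFTest), and a gene was called at a Benjamini-Hochberg adjusted *P* under 0.05 over all genes tested. Ranges that do not overlap mean that all 3 libraries of one group lie above all 3 of the other. The 7 alternatives were DESeq2 1.42.0, DESeq2 size factors in edgeR, no filter on low counts, all 18 libraries in one fit, the same with sex as a term, a replicate block and the added limit of an absolute log2FC above 1, and each library was also left out in turn. The scripts were tested on simulated data. Correlations used log2(CPM + 0.5).

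The members and the lists (other p53 targets, p53 family and regulators, cell cycle, interferon response and markers of cell types) were chosen with earlier results of these data known. Named were all members, *Trp53*, *Mdm4* and *Cdkn2a*, of the other targets up to 6 called genes with the largest absolute log2FC against uninjected eyes and up to 4 between injected groups, of further lists up to 3, each at a mean log2 CPM of 0 or more, and the 5 genes most correlated with the members (mean log2 CPM of 1 or more). Some genes that this rule names are not reported here. Gene positions are from GENCODE M21 and promoter sequences from RefSeq.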

Additional observations from a re-analysis of the deposited data

Results flagged for a closer look

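Each of these 6 values is a difference between the *Lrp2* hairpins that passed the direct test of *Lrp2* sh2 against *Lrp2* sh1 (edgeR, adjusted *P* under 0.05). *Eda2r* was 1.05 higher on the log2 scale with *Lrp2* sh2, and the groups did not overlap. *Zmat3* was 0.49 higher and *Trp53inp1* 0.33 higher. *Cdkn1a* had a log2FC of −0.56, *Sesn1* of −0.36 and *Ccng1* of −0.34, each lower in 3 of 3 *Lrp2* sh2 libraries than in all *Lrp2* sh1 libraries. With all 18 libraries in one fit, with or without sex as a term, *Eda2r*, *Zmat3* and *Sesn1* were called and the others were not.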

How the results depend on the processing

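Among the members' log2FC between injected groups, the alternatives that kept all libraries left 278 with the same direction and call, 12 lost a call, 8 gained one (*Eda2r* with *Lrp2* sh1 and *Trp53inp1* with *Lrp2* sh2 versus ctrl sh, *Ccng1* in nSREBP2 versus GFP), and 2 changed sign, *Tnfrsf10b* in nSREBP2 versus GFP (−0.20) and *Bax* between the hairpins (−0.014), both with sex as a term. Members called in nSREBP2 versus GFP numbered 3, 1 with all 18 libraries in one fit, 0 with sex as a term, 0 with the fold limit and 1 to 3 with a library left out. The count with the fold limit was 3 for *Lrp2* sh1 and 5 for *Lrp2* sh2 versus ctrl sh, 1 between the hairpins and 0 in ctrl sh versus GFP. Without that limit and with a library left out, 4 to 7, 7 to 8, 4 to 6 and 0 to 1 members were called, and between the hairpins 3 were called in both fits of all 18 libraries. Other targets called with GFP against uninjected eyes numbered 6, 10 without a filter, 14 with all 18 libraries, 12 with sex as a term and 2 to 8 with a library left out. With the fold limit the other targets called against uninjected eyes were 9 with nSREBP2, 2 with ctrl sh, 9 with *Lrp2* sh1 and 13 with *Lrp2* sh2, and without that limit and with a library left out 16 to 21, 3 to 8, 17 to 23 and 16 to 20. The members' median log2FC against uninjected eyes was 0.46 with sex as a term for nSREBP2. With a library left out it was 0.57 to 0.63 (GFP), 0.48 to 0.59 (nSREBP2), 0.32 to 0.58 (ctrl sh), 1.05 to 1.20 (*Lrp2* sh1) and 0.98 to 1.12 (*Lrp2* sh2). The fold limit lowers counts by construction, and the cause of the other changes was not tested. Leaving out a library also turned the sign of *Trp53inp1* (−0.082 to 0.29) and *Sesn1* (−0.19 to 0.0068) in *Lrp2* sh1 versus ctrl sh, of *Mdm2* (−0.10 to 0.057) and *Phlda3* (−0.19 to 0.014) between the hairpins, and in ctrl sh versus GFP of *Cdkn1a* (−0.65 to 0.087), *Ccng1* (−0.15 to 0.26), *Tnfrsf10b* (−0.080 to 0.13), *Phlda3* (−0.12 to 0.0013), *Eda2r* (−0.50 to 0.11), *Trp53inp1* (−0.23 to 0.13) and *Sesn1* (−0.035 to 0.14). None of these was called with all libraries. Replicate numbers did not pair the libraries, since same-numbered deviations correlated at −0.26 to 0.32 and no comparison had all 3 pairs above 0.1. A replicate block left the counts of members called at 3, 6, 8, 6 and 1 and lowered the other targets called with ctrl sh against uninjected eyes from 10 to 5.

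With 3 libraries per group, a gene that did not pass is not shown to be equal between groups. Near the limit of a count of 0 (0.216 to 0.327 CPM), as for *Cdkn2a* and *Rprm* in uninjected eyes, differences were not detectable at this depth or rest on few counts.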

Other observations

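Cell cycle genes, 15 of them tested, were called in the same comparisons to different extents. In nSREBP2 versus GFP all 15 rose, among them *Birc5* (1.38, adjusted *P* = 0.00327), *Mki67* (1.21, adjusted *P* = 0.00021) and *Ccnb1* (1.17, adjusted *P* = 0.015), all genes of mitosis or proliferation (edgeR). In *Lrp2* sh2 versus ctrl sh 11 rose and 0 fell, led by *Cdk1* (1.17, adjusted *P* = 0.00091), *Birc5* (1.07, adjusted *P* = 0.00949) and *Mki67* (1.02, adjusted *P* = 0.00175). In *Lrp2* sh1 versus ctrl sh, where *Cdkn1a* rose the most of the members, 1 rose, *E2f1* (1.10, adjusted *P* = 0.000286), which encodes a transcription factor of S phase entry. Between the hairpins 12 were higher and 1 lower with *Lrp2* sh2, with *Birc5* at 1.50, *Cdk1* at 1.23 and *E2f1* at −1.29. In ctrl sh versus GFP none of 15 was called (1 at an unadjusted *P* under 0.05, 0 by DESeq2). Against uninjected eyes 2 rose with GFP, 15 with nSREBP2, 4 with ctrl sh, 10 with *Lrp2* sh1 and 15 with *Lrp2* sh2, beside 2.48%, 26.2%, 6.49%, 24.5% and 22.7% of all genes called. Between injected groups the share of all genes called was 21% in nSREBP2 versus GFP, 5.33% and 18.1% in *Lrp2* sh1 and sh2 versus ctrl sh, 22.4% between the hairpins and 2.68% in ctrl sh versus GFP. Fibroblast and macrophage markers were also called in nSREBP2 versus GFP (6 of 6 and 7 of 7 higher) and in *Lrp2* sh2 versus ctrl sh (2 of 6 and 2 of 7 higher), and their part was not tested.

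Interferon response genes, 12 tested, were called to different extents between comparisons. The shares of all genes called are those given for the cell cycle genes. In nSREBP2 versus GFP 4 rose and 1 fell, with *Zbp1* at 1.21, *Gbp2* at 0.93 and *Rsad2* at −0.59. *Lrp2* sh1 and ctrl sh did not differ in any call (edgeR 0, DESeq2 0, 1 gene at an unadjusted *P* under 0.05), and *Lrp2* sh2 had *Zbp1* higher than ctrl sh (1.02). Between the hairpins 3 were higher with *Lrp2* sh2. In ctrl sh versus GFP edgeR called 0 and DESeq2 2, with 4 at an unadjusted *P* under 0.05. Against uninjected eyes 0 were called with GFP (3 at an unadjusted *P* under 0.05, 2 by DESeq2), 4 rose with nSREBP2, 2 fell with *Lrp2* sh1, *Isg15* (−0.96) and *Irf7* (−0.91), and 0 were called with *Lrp2* sh2 (4 at an unadjusted *P* under 0.05, 0 by DESeq2).

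Levels of the epithelial p53 targets *Sfn* and *Perp* were uneven within the nSREBP2 and both *Lrp2* hairpin groups. In nSREBP2 replicate 3 *Sfn* was at 80.4 CPM and *Perp* at 174, against 15.1 and 9.04, and 54.4 and 33.5, in replicates 1 and 2. In *Lrp2* sh2 replicate 3 *Sfn* was at 70.9 CPM and *Perp* at 222, against 25.2 and 23.5, and 127 and 122, in the others. In *Lrp2* sh1 replicate 3 *Sfn* was at 27.5 CPM and *Perp* at 134, against 4.84 and 3.63, and 104 and 76.6.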
